A study of Homo sapiens with 4 samples.

Results

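AP-1 and immediate early genes were followed in 4 RNA sequencing libraries of A549 cells, as the 10 gene rows named FOS, FOSB, FOSL1, FOSL2, JUN, JUNB, JUND, EGR1, IER3 and IER5 of the 42113 rows listed for each library. All 10 were found, and 9 had a mean of at least 30 normalized fragment counts over the 4 libraries, the level at which a gene was taken as measured; FOSB did not, with a mean of 10.5. A549 is an established human lung adenocarcinoma line. The cells had been stably infected with a lentivirus for a short hairpin RNA (shRNA) and fell into 4 groups of 1 library each: LIMA1 shRNA with nutlin-3a, control shRNA with nutlin-3a, LIMA1 shRNA untreated and control shRNA untreated. Nutlin-3a, given at 10 µM, keeps the ubiquitin ligase MDM2 off p53, and RNA was taken at 24 h. The series asked how knockdown of LIMA1, which encodes the actin-binding protein EPLIN, alters the genes that p53 switches on.

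AP-1 is a dimer of basic leucine zipper proteins in which a FOS family protein pairs with a JUN family protein; JUN proteins can also pair among themselves. Immediate early genes such as FOS and EGR1 are transcribed within minutes of a growth or stress signal without new protein synthesis, through serum response factor and its ERK-phosphorylated partners, and their RNAs are short-lived. FOSL1 and FOSL2, which encode FRA1 and FRA2, respond later and more lastingly to ERK signalling. A library taken a day after treatment holds the level at that time and no early pulse.

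Each group had 1 library, so no difference has a replicate check, no test was made, and each one compares libraries. The values are fragment counts divided by a size factor per library, and libraries held 15150704 to 16744884 fragments. A difference is that of log2(normalized count + 1) unless a fold is named, and one of 1 or more in size is named a call. Intervals in brackets are 95% intervals of the ratio of counts without the added 1, so for low counts they are centred slightly off the printed difference. They are exact, except for gaps between responses, and cover counting error only. With nutlin-3a LIMA1 stood at 133 normalized counts in LIMA1 shRNA cells, against 866 with control shRNA, and untreated at 68.3 against 416, so both knockdown libraries fitted their label. The A549 markers KRT8, KRT18, AKR1B10 and ALDH1A1 and 4 others were present in every library, and CDKN2A, which A549 lacks, was at 0 in all 4. Of 10 markers that A549 should lack, 3 to 5 were above the floor of 3 fragments, mainly CD68 and COL1A1. CD68 was far above it, at 613 to 897 normalized counts over the libraries, with values that were not all whole fragments. COL1A1 had 19.3 to 70.7, and the other 8 summed to 8.58 to 19.9 normalized counts. EPCAM was lower with nutlin-3a (31.1 against 82.1 in LIMA1 shRNA cells and 111 against 229 in those with control shRNA) and KRT19 was higher (5840.3 against 2061 and 3420 against 1278), as was ALDH3A1, by 2.53 and 2.41; their part in the results below was not tested. As these are bulk cultures, fewer cells that express a gene and less RNA per cell cannot be told apart.

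The promoters of FOS, FOSL2, EGR1 and IER5 are shown because the levels of these genes differed between libraries in different ways. They come from RefSeq on GRCh38.p14, whereas the submitters' processing notes name hg19 for the deposited values. Each runs from 250 bases before to 50 bases after the annotated start, 5′ to 3′ on the gene's own strand. Capitals mark every match, on either strand, to the AP-1 site TGANTCA, the cyclic AMP response core TGACG, the CArG box bound by serum response factor, or the decamer from which p53 response elements are built.
FOS, chr14:75278578-75278877, plus strand: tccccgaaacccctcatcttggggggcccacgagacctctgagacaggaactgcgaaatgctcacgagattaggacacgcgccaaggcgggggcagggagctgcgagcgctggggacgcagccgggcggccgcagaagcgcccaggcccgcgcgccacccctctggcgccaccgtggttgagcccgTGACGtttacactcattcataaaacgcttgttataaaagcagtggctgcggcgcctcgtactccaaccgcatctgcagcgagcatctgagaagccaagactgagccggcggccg
FOSL2, chr2:28392608-28392907, plus strand: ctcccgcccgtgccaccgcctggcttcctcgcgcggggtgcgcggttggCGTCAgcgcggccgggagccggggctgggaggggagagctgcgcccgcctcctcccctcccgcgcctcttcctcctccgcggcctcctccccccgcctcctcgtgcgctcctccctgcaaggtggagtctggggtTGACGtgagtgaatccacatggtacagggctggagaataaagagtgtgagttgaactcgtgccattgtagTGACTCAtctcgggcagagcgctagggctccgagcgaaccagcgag
EGR1, chr5:138465229-138465528, plus strand: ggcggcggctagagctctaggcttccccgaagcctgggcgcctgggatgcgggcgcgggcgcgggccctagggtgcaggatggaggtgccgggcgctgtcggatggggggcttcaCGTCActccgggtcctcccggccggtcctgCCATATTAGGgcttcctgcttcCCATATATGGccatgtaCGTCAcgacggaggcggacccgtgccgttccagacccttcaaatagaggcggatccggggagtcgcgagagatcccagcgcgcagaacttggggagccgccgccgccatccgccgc
IER5, chr1:181088450-181088749, plus strand: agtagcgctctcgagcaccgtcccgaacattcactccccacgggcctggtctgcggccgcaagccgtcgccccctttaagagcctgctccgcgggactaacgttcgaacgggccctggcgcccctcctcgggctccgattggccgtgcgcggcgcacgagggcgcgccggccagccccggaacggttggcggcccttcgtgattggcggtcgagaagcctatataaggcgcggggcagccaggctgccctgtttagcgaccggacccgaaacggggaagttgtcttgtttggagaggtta

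The motifs differed in how common they were. Of the 35116 promoter windows in the table, 7.71% held TGANTCA, 24.6% TGACG, 1.29% a CArG box and 6.63% the p53 decamer. The table had windows for 8 of the 10 genes but not for FOSL1 or IER3, so the counts below do not cover them. TGACG was in 7 of the 8, all but IER5, and TGANTCA in 1, FOSL2, where it lies just after the start at positions 5 to 11. EGR1 was the only one of the 8 with CArG boxes in its window, at positions -105 to -96 and -83 to -74 from the start. The p53 decamer was in 0 of the 8. A match is a run of letters and not a bound site. A missing match, for the CArG box as for the p53 decamer, says only that the letters are not in these windows. Bases further from the start were not searched.

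Among FOS family genes, FOSL1 was higher and FOS lower with nutlin-3a in both cell lines. FOSL1 had 760 normalized counts with nutlin-3a against 171 untreated in LIMA1 shRNA cells, and 547 against 145 in control shRNA cells. Both nutlin-3a libraries lay above both untreated ones. How many of all genes keep the treatments apart in this way was not counted, for FOSL1 or for the genes below. The difference was 2.14 (4.44-fold, 3.75 to 5.27) in LIMA1 shRNA cells and 1.91 (3.77-fold, 3.15 to 4.53) in control shRNA cells. From the top, FOSL1 ranked 220 of 12742 measured genes in LIMA1 shRNA cells and 209 in control shRNA cells. Its order over the libraries was LIMA1 shRNA with nutlin-3a, control shRNA with nutlin-3a, LIMA1 shRNA untreated and control shRNA untreated; the 2 untreated libraries did not differ beyond counting error, at a ratio of 1.18 (0.944 to 1.47).

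FOS encodes the founding member of the family, whose protein cannot form a dimer without a partner such as JUN. FOS had 178 normalized counts with nutlin-3a against 361 untreated in LIMA1 shRNA cells and 181 against 349.7 in control shRNA cells. The treated libraries were close to each other and so were the untreated ones, with no overlap between treatments. The difference was -1.02 (-1.29 to -0.75) in LIMA1 shRNA cells, just past the size for a call, and -0.95 (-1.22 to -0.69) in control shRNA cells, just short of it. The call in LIMA1 shRNA cells ended with a pseudocount of 30 (-0.91), upper-quartile scaling (-0.94) and median-of-ratios scaling (-0.99).

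FOSL2, which encodes FRA2, stood at 3261 normalized counts with nutlin-3a against 1654 untreated in LIMA1 shRNA cells, and at 3353 against 2201 in control shRNA cells. The treated libraries were again above the untreated ones, by 0.98 (0.89 to 1.07) in LIMA1 shRNA cells and 0.61 (0.53 to 0.68) in those with control shRNA, both short of a call. The first reached 1 with upper-quartile and median-of-ratios scaling. The treated libraries did not differ beyond counting error, at a control to LIMA1 shRNA ratio of 1.03 (0.979 to 1.08). FOSB, an early gene known best from neurons, had 11.8, 9.23, 12.9 and 8.31 normalized counts in LIMA1 shRNA with nutlin-3a, control shRNA with nutlin-3a, LIMA1 shRNA untreated and control shRNA untreated cells. At 8.82 to 13.0 fragments a library no neighbouring pair in its order differed beyond counting error. Its values were not all whole fragments, which the other 9 genes' values were to within 0.1 of a fragment; without stated strand, reads of overlapping genes cannot be told apart.

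**Figure D1:**
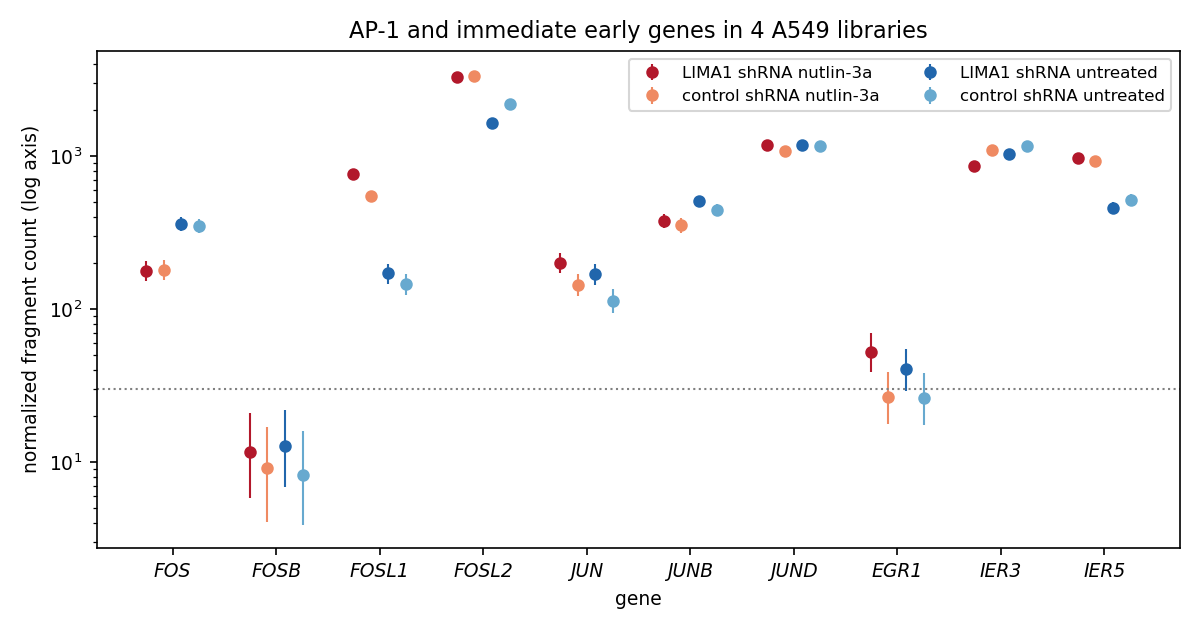
Normalized fragment counts (log axis) of the 10 genes in the 4 libraries; points are single libraries, bars are exact 95% Poisson intervals of the fragments, and the dotted line marks the mean of 30 needed to be measured. FOSL1, FOSL2 and IER5 are higher and FOS and JUNB are lower in both nutlin-3a libraries, while FOSB lies under the line in all 4.

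No JUN family gene was called with nutlin-3a. JUN, the founding gene of AP-1, had 200.5 normalized counts with nutlin-3a against 169 untreated in LIMA1 shRNA cells and 144 against 113 in control shRNA cells. Its differences were 0.24 (-0.06 to 0.55) and 0.34 (-0.01 to 0.71), and no neighbouring pair in its order of libraries differed beyond counting error. JUNB, which can restrain JUN activity, had 378 against 506 normalized counts in LIMA1 shRNA cells and 352 against 443 in control shRNA cells. Both nutlin-3a libraries lay below both untreated ones, with differences of -0.42 (-0.62 to -0.22) and -0.33 (-0.53 to -0.13), sizes short of a call. JUND, the family member least tied to stimulation, did not differ beyond counting error between neighbours in its order. It had 1180.3 against 1179.5 normalized counts in LIMA1 shRNA cells and 1074 against 1156 in control shRNA cells.

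EGR1, a zinc finger factor with the CArG boxes shown above, was low. It had 52.5 normalized counts with nutlin-3a against 40.6 untreated in LIMA1 shRNA cells and 26.8 against 26.4 in control shRNA cells. The nutlin-3a differences were 0.36 (-0.26 to 1.01) and 0.02 (-0.80 to 0.84), and the 27 to 49 fragments a library left these intervals wide. IER3, a stress gene that acts on survival and ERK signalling, had 864 against 1037 normalized counts in LIMA1 shRNA cells, a difference of -0.26 (-0.40 to -0.13). In control shRNA cells it had 1095 against 1159, a difference of -0.08 (-0.20 to 0.04). IER5, an early response gene that binds the heat shock factor HSF1 and has been described as a p53 target, had 973 against 460.1 normalized counts in LIMA1 shRNA cells and 928 against 517 in control shRNA cells. Its differences were 1.08 (0.92 to 1.25) and 0.84 (0.69 to 1.0002), a call in LIMA1 shRNA cells alone, and the treated libraries differed by no more than counting error, at a ratio of 1.05 (0.956 to 1.15).

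Over the 9 measured genes, 2 (FOSL1 and IER5) were called higher and 1 (FOS) lower with nutlin-3a in LIMA1 shRNA cells, where 7.29% of 12742 genes were called higher and 6.08% lower. In control shRNA cells 1 (FOSL1) was called higher and 0 lower, where 5.54% of genes were called higher and 5.64% lower. The median difference of the 9 genes was 0.24 in LIMA1 shRNA cells and 0.02 in those with control shRNA, beside -0.02 and -0.02 for all measured genes. With 9 genes 1 gene is 11.1%, so the counts were not read as different from those shares.

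**Figure D2:**
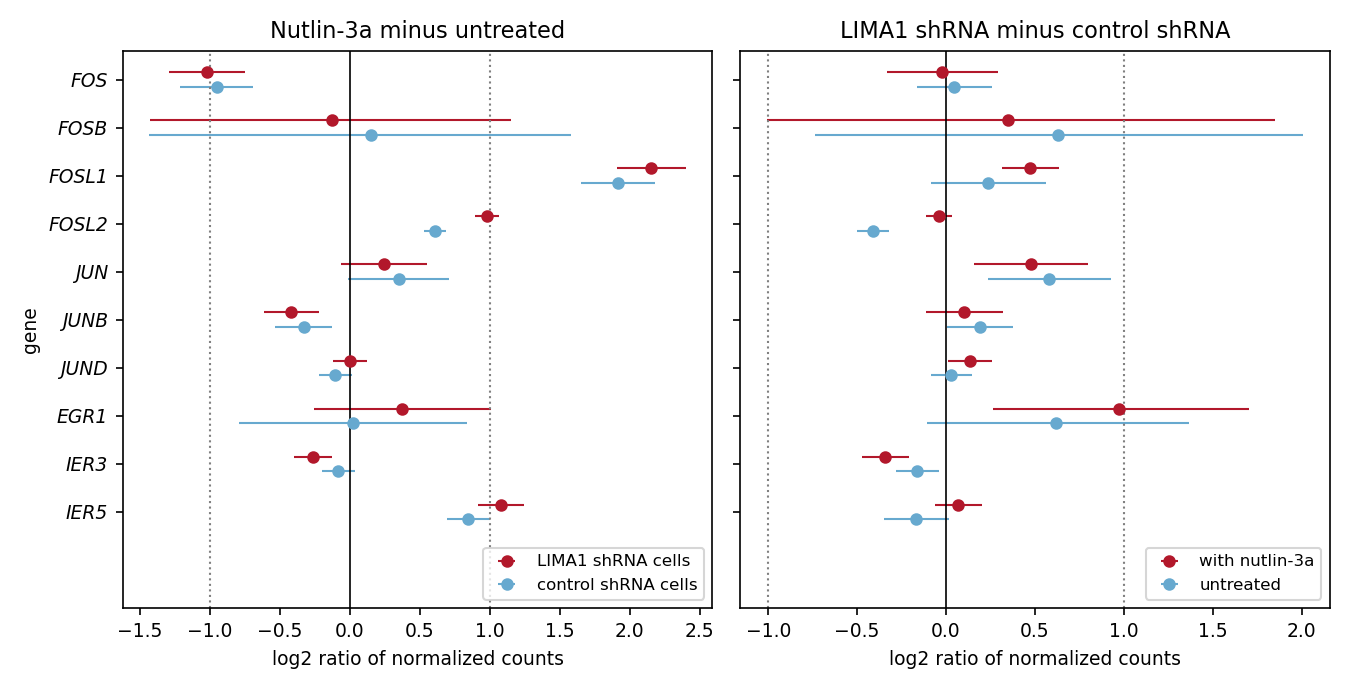
Log2 ratios of normalized counts for the 10 genes: nutlin-3a over untreated (left) and LIMA1 shRNA over control shRNA (right). Points are single ratios between 2 libraries, bars exact 95% counting intervals, and dotted lines the size of 1. On the left FOSL1 lies furthest to the right in both lines and FOS furthest to the left; on the right no measured gene reaches 1.

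**Figure D3:**
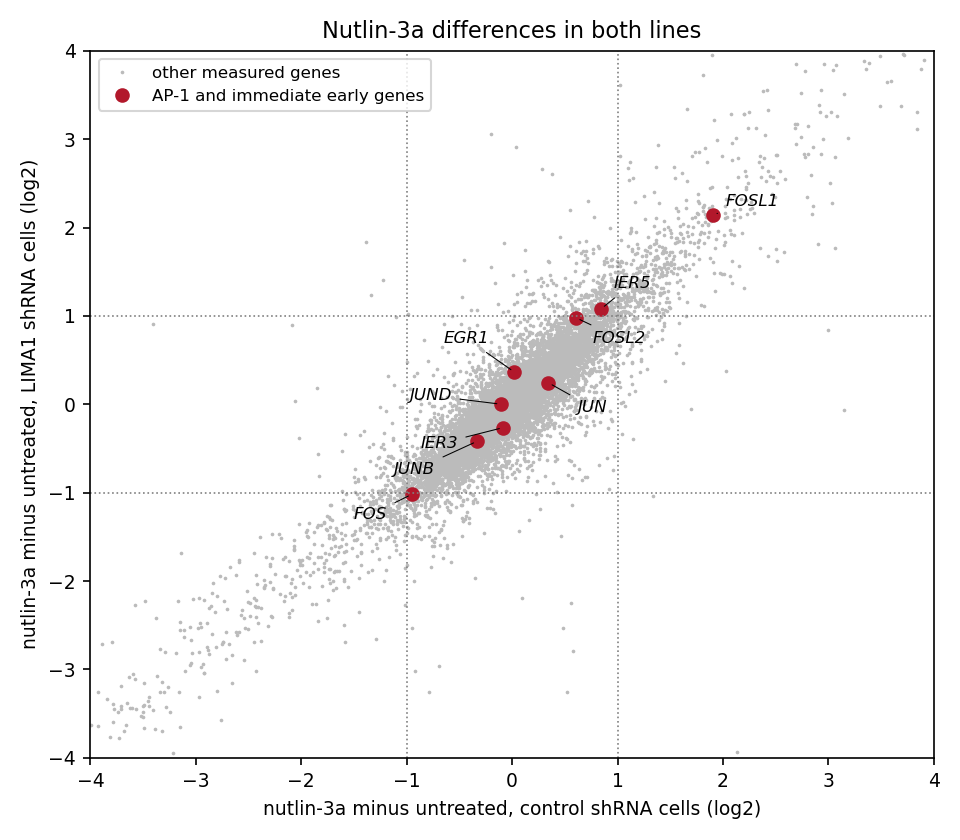
Difference with nutlin-3a (log2 scale) in control shRNA cells (x) and LIMA1 shRNA cells (y) for the measured genes, with the 9 measured AP-1 and immediate early genes in red; 208 genes lie outside the axes, which end at 4. FOSL1 lies at the upper right beyond 1 on both axes, FOS at the lower left near -1 on both, and the other 7 in or at the edge of the main cloud.

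Levels of different genes were set side by side only per kilobase, with the length of the longest coding transcript in GENCODE 29. On that scale FOSL2 and FOSL1 made up most FOS family RNA with nutlin-3a, and FOSL2 and FOS in untreated cells. In LIMA1 shRNA cells FOSL1 stood at 455 normalized counts per kb with nutlin-3a against 103 untreated, which is 44.3% against 19.7% of the FOS family sum. In control shRNA cells it stood at 328 against 87.0 per kb, or 35.9% against 15.01%. FOS made up 8.03% against 32.2% of the sum in LIMA1 shRNA cells and 9.16% against 28.0% in control shRNA cells. FOSL2 held 47.3% against 47.4% in LIMA1 shRNA and 54.7% against 56.6% in control shRNA cells, and FOSB at most 0.655% in any library.

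The FOS family sum was 1027 against 519.99 normalized counts per kb in LIMA1 shRNA cells and 914 against 579 in control shRNA cells. The JUN family sum was 898 against 959 and 811 against 896 per kb. JUND made up 70.5% against 66.0% of JUN family RNA in LIMA1 shRNA cells and 71.1% against 69.3% in control shRNA cells, JUNB 23.2% to 28.98% over the 4 libraries and JUN 3.57% to 6.31%. FOS family RNA was 1.98-fold higher with nutlin-3a in LIMA1 shRNA cells and 1.58-fold higher in control shRNA cells, while JUN family RNA was 0.937-fold and 0.905-fold that of untreated cells. RNA shares say nothing of protein, which was not measured here. With the length of all exons joined, FOS held 6.34% against 26.6% in LIMA1 shRNA and 7.20% against 22.7% in control shRNA cells, and FOSL1 43.2% against 20.1% and 34.8% against 15.1%.

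**Figure D4:**
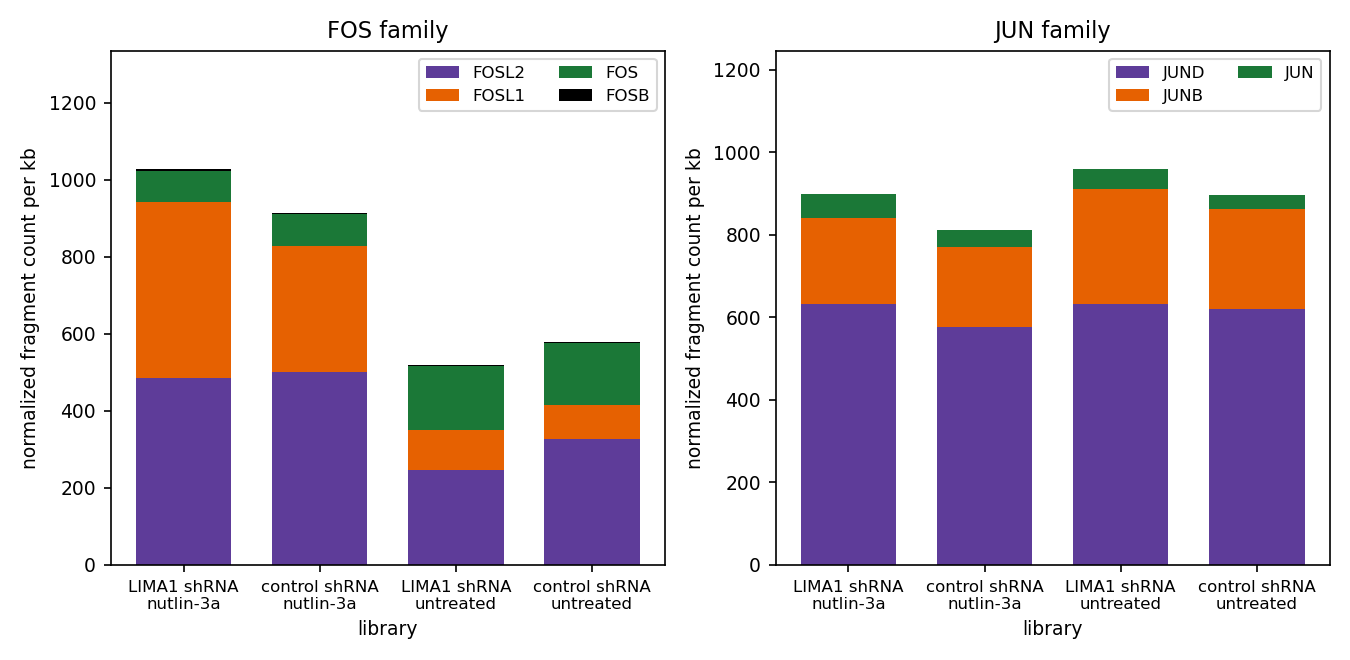
Normalized fragment counts per kb of transcript, stacked by gene, for the FOS family (left) and the JUN family (right) in the 4 libraries; bars are single libraries with no error bar. The FOS family bars are taller with nutlin-3a, with a wider FOSL1 and a narrower FOS band, whereas the JUN family bars stay between 811 and 959 per kb.

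With LIMA1 knockdown 0 of the 9 measured genes reached a size of 1 in either treatment, and JUN was the gene that was higher beyond counting error in both. Of all genes 1.26% were called higher and 1.94% lower with nutlin-3a, and 1.04% higher and 2.05% lower in untreated cells. Called in either direction were 3.2% of genes with nutlin-3a and 3.08% untreated. Each line was infected stably, and what else set the lines apart cannot be told apart from the hairpin. Among the A549 markers EPCAM was lower with knockdown, at -1.81 with nutlin-3a and -1.47 untreated, and KRT19 was at 0.77 and 0.69; their part was not tested. The sample titles write si where the protocols write shRNA, which is followed here. JUN was higher in LIMA1 shRNA cells, with 200.5 against 144 normalized counts with nutlin-3a and 169 against 113 untreated. Its differences, 0.48 (0.16 to 0.80) and 0.58 (0.24 to 0.93), were both larger than counting error. EGR1 had 52.5 against 26.8 normalized counts with nutlin-3a, a difference of 0.95 (0.26 to 1.71) that ranked 188 of 12742 from the top. In untreated cells it had 40.6 against 26.4, a difference of 0.60 (-0.11 to 1.37). FOSL1 had 760 against 547 normalized counts with nutlin-3a, a difference of 0.47 (0.31 to 0.64), and 171 against 145 untreated, 0.24 (-0.08 to 0.56). FOS was within counting error of control cells, with differences of -0.02 (-0.33 to 0.29) with nutlin-3a and 0.05 (-0.17 to 0.26) untreated.

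FOSL2 was lower in LIMA1 shRNA cells when untreated, at 1654 against 2201 normalized counts, a difference of -0.41 (-0.50 to -0.32), and close to control cells with nutlin-3a, at -0.04 (-0.11 to 0.03). IER3 was lower in LIMA1 shRNA cells in both treatments, with differences of -0.34 (-0.47 to -0.21) with nutlin-3a and -0.16 (-0.28 to -0.04) untreated. JUNB differed by 0.10 (-0.11 to 0.32) and 0.19 (0.01 to 0.37), JUND by 0.14 (0.01 to 0.26) and 0.03 (-0.09 to 0.15), and IER5 by 0.07 (-0.06 to 0.20) and -0.17 (-0.35 to 0.01), each with nutlin-3a and then untreated. Over the 9 genes the median was 0.10 with nutlin-3a and 0.05 untreated, beside 0.03 and 0.02 over all measured genes. Each knockdown difference shares a library with each nutlin-3a difference, so the values are given side by side and not correlated.

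The gap between the nutlin-3a differences of the lines, LIMA1 shRNA minus control shRNA, was under 1 in size for all 9 measured genes; 1.27% of all genes were at 1 or above and 0.816% at -1 or below, 2.09% in all. It was largest for FOSL2, at 0.37 (0.26 to 0.49, from the counting errors of all 4 libraries), whose responses were 0.98 and 0.61. IER5 followed among the genes whose interval left out 0, at 0.24 (0.01 to 0.46), and IER3 was at -0.18 (-0.36 to -0.0038). For EGR1 (0.34, -0.62 to 1.32), FOSL1 (0.24, -0.12 to 0.59), JUND (0.11, -0.06 to 0.27), FOS (-0.07, -0.44 to 0.30), JUNB (-0.09, -0.37 to 0.19) and JUN (-0.10, -0.56 to 0.36) the interval held 0. Intervals of this width cannot show that the lines respond alike.

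By Euclidean distance between centred log2 values over the 4 libraries, the 3 most similar of 8899 genes were sought for the 4 measured genes that spanned at least 1. For FOSL1 they included CEACAM1 (distance 0.07) and F5 (0.12). CEACAM1, a cell adhesion gene, had 2014 against 452 normalized counts in LIMA1 shRNA cells and 1359 against 375 in control shRNA cells. For FOS they were RAN, HSP90AA1 and NPM3, for FOSL2 ARNT2, PLA2R1 and HDAC11, and for IER5 ING4, MAFIP and TOM1, all at 0.07 or less. With 4 points per gene many profiles lie close together.

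Partner factors of AP-1 were called in both directions. Of 13 listed, 9 were measured; with nutlin-3a 1 was higher and 2 lower in LIMA1 shRNA cells and 1 higher and 1 lower in control shRNA cells, with medians of -0.15 and 0.16. Over all genes the share called was 7.29% upward and 6.08% downward with LIMA1 shRNA, and 5.54% and 5.64% with control shRNA. With a pseudocount of 30 these calls all ended, leaving 0 higher and 0 lower in both lines. BATF2 was higher by 1.93 and 1.12, BATF3 was at -1.48 and -1.02, and JDP2, a repressor of AP-1, was at -1.01 in LIMA1 shRNA cells and 0.22 in those with control shRNA. JDP2 had 225 normalized counts with nutlin-3a against 454 untreated in LIMA1 shRNA cells and 241 against 206 in control shRNA cells, so its untreated LIMA1 shRNA library stood apart. ATF3, a stress-induced factor that can pair with JUN, was likewise highest in that library, at 120.1 against 187 and 139 against 95.2. The gap between the lines was -1.23 for JDP2 and -1.18 for ATF3. With a pseudocount of 30 the ATF3 gap falls under 1 in size, while the JDP2 gap does not. With knockdown JDP2 was called higher in untreated cells (1.13) and BATF3 lower with nutlin-3a (-1.42). The BATF3 call ended with a pseudocount of 30. In each treatment 1 of 9 is 11.1%, beside 3.08% of all genes untreated and 3.2% with nutlin-3a, and 1 gene is a small count.

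Other immediate early and early response genes had 30 of 35 measured. With nutlin-3a 2 were higher and 3 lower in LIMA1 shRNA cells and 1 higher and 1 lower in control shRNA cells, with medians of -0.07 and -0.11. In either direction these are 16.7% and 6.67% of the list, beside 13.4% and 11.2% of all genes. With a pseudocount of 30 the lower calls were 1 and 0. PLK3, a stress kinase gene, was higher by 1.77 and 1.45, and ID3, a dominant negative partner of helix-loop-helix factors, by 1.04 and 0.72. The zinc finger factor KLF6 was at -1.28 and -0.79, KLF2 at -1.54 and -1.12 and the matrix protein gene CTGF at -1.17 and -0.21. KLF4 was at -0.85 and -0.93, and NR4A1, an orphan nuclear receptor gene, at -0.20 and -0.66. Between the lines CTGF was at -1.73 with nutlin-3a and -0.77 untreated, and the kinase gene SGK1 at -0.72 and -1.05. These were the calls, 1 of 30 lower in each treatment and 0 higher, and the SGK1 call ended with a pseudocount of 30. In either direction that is 3.33% of the list in each treatment, near the 3.2% of all genes with nutlin-3a and 3.08% untreated.

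ERK pathway outputs differed in both directions. Of 18 measured, 3 were higher and 2 lower with nutlin-3a in LIMA1 shRNA cells, and 1 higher and 2 lower in control shRNA cells, with medians of -0.21 and -0.04. In either direction these are 27.8% and 16.7% of the list, beside 13.4% and 11.2% of all genes, and counts of 5 and 3 genes are small. The ETS factors ETV4 (-1.26 and -1.19) and ETV1 (-1.52 and -1.20) were lower in both lines, and the ephrin receptor EPHA4 higher (1.10 and 1.49). DUSP5, an ERK phosphatase gene, was at 1.08 and 0.56, SPRED3 at 1.66 and 0.71, and DUSP6 at 0.07 and 0.30. The SPRED3 call rests on low values, 39.7 normalized counts with nutlin-3a against 11.9 untreated in LIMA1 shRNA cells. With knockdown 0 of 18 were called with nutlin-3a and 1 (SPRED3, -1.32) in untreated cells, a call that ended with a pseudocount of 30. These are 0% and 5.56% of the list, beside 3.2% and 3.08% of all genes. Among 29 upstream kinases and serum response factor partners, 1 was called with nutlin-3a in LIMA1 shRNA cells (HRAS, 1.08) and 0 in control shRNA cells (HRAS, 0.77), with medians of -0.20 and -0.18. MAP2K6, a p38 kinase kinase gene, was the only one called with knockdown, at 1.13 in untreated cells and 0.85 with nutlin-3a. That is 3.45% of the 29 untreated and 0% with nutlin-3a, beside the same 3.08% and 3.2% of all genes.

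Genes listed as AP-1 targets had 17 of 27 measured. With nutlin-3a 4 were higher and 4 lower in LIMA1 shRNA cells and 2 higher and 4 lower in control shRNA cells, with medians of 0.41 and 0.36 beside -0.02 for all genes in each. In either direction these are 47.1% and 35.3% of the list, beside 13.4% and 11.2% of all genes; the list was chosen with earlier results of these data known. PLAU, which encodes urokinase, was among those higher in both lines (1.32 and 1.10); it had values that were not whole fragments, and without such genes 1 was higher in control shRNA cells. The laminin chain gene LAMB3 was at 1.14 and 0.98 and the receptor kinase gene AXL at 1.05 and 0.94. Lower in both were the growth factor gene EREG (-1.50 and -1.18), HMGA1 (-1.05 and -1.06), IL11 (-1.48 and -1.14) and CXCL8 (-1.39 and -1.34). IL11 had 6.43 to 73.5 and CXCL8 19.9 to 83.1 normalized counts over the libraries, and with a pseudocount of 30 the lower calls were 2 in each line. MMP3 and MMP13, matrix metalloproteinase genes often used as AP-1 targets, were at 0 in all 4 libraries, which allows up to 3.22 normalized counts. IL11 was the only one called with knockdown, at -2.18 with nutlin-3a and -1.84 untreated. With a pseudocount of 30 the first call ended. In each treatment 1 gene is 5.88% of the list, beside 3.2% of all genes with nutlin-3a and 3.08% untreated.

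**Figure D5:**
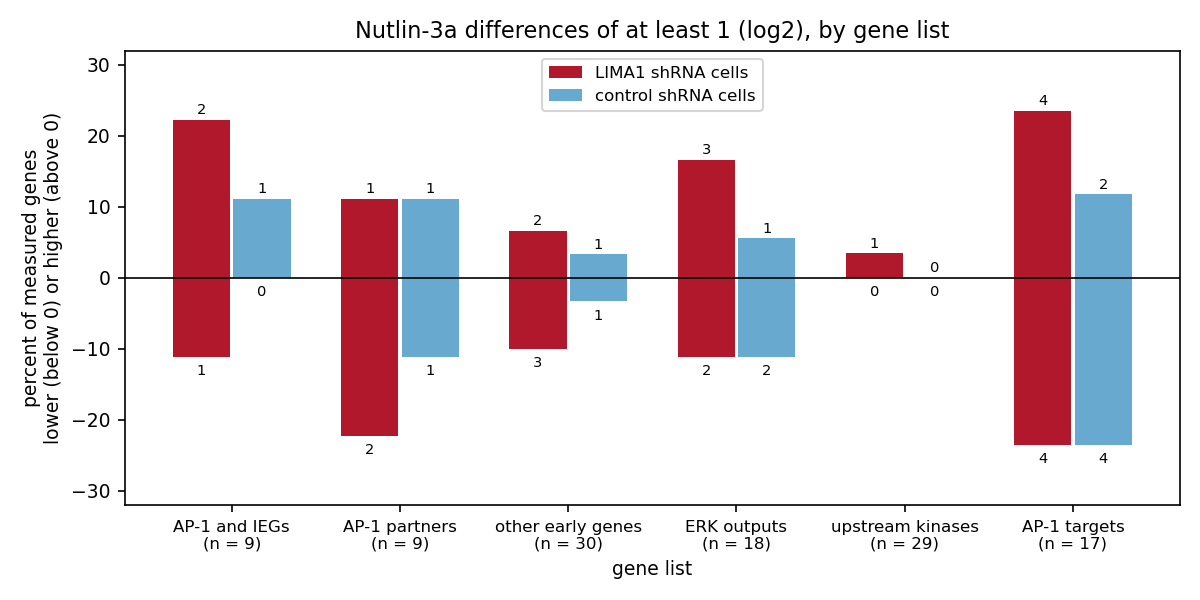
Percent of the measured genes of each list that were called higher (above 0) or lower (below 0) with nutlin-3a, in LIMA1 shRNA (red) and control shRNA cells (blue); IEGs are immediate early genes, and numbers at the bars are gene counts. Calls run in both directions in 5 of the 6 lists in LIMA1 shRNA cells, and 0 or 1 of 29 upstream kinase genes is called. They also run both ways over all measured genes, which are not drawn. Of these, 7.29% were called higher and 6.08% lower in LIMA1 shRNA cells, and 5.54% and 5.64% in control shRNA cells.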

How the data were processed

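In all, 4 RNA libraries of A549 cells were read, 1 per group. The authors deposited 1 signal value per gene and library. The submitters' processing notes name hg19, bcl2fastq 1.8.3, Bowtie2 2.0.12 and Cuffnorm 2.2.1 with no role or order, while for the annotation the sources used here name nothing. From the values, the signal was found to be fragments divided by 1 factor per library and not by length: 1 fragment is worth 1.07, 0.993, 0.990 and 0.943 in LIMA1 shRNA with nutlin-3a, control shRNA with nutlin-3a, LIMA1 shRNA untreated and control shRNA untreated cells. Between 0.5 and 1000 fragments 85.5% to 86.3% of values lay within 0.1 of a whole number, too few to treat the values as recovered reads, so no count test was run. Of 9716 measured genes that could be checked, 1791 (18.4%) had a value that was not whole.

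Genes with a mean of at least 30 (12742) were measured, and differences were taken on log2(value + 1). Intervals of a ratio are exact Clopper-Pearson, and those of a response difference are normal from Poisson errors, both without the added 1. The calling step was tested on simulated counts with Poisson error only. These hold no variation between replicate libraries, so they cannot show how often such variation alone gives a call. The members and lists were chosen with earlier results of these data known. Genes named are the 10 members, LIMA1, up to 4 list genes per comparison with means of at least 150 and the largest differences, and, for members whose log2 values span at least 1, the 3 nearest profiles; other list genes named were chosen after their values were seen. Some genes that the rule names are not reported here. Alternatives were other pseudocounts, scalings, filters and sizes, and, added after seeing the data, other lengths and FOS family shares without FOSB. Lengths come from GENCODE 29 (GRCh38). Scripts ran under Python 3.11.15 with scipy 1.17.1, numpy 2.4.6 and pandas 2.3.3.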

Additional observations from a re-analysis of the deposited data

Results flagged for a closer look

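Each of these genes had a difference of opposite sign in the other line or treatment, and the difference between them was not tested. Each pair of counting intervals overlaps, which does not show that a pair lies within counting error. The gap within a pair, first value minus second, equals the gap between the nutlin-3a differences of the lines. Its counting interval left out 0 for IER5 (0.01 to 0.46) and held 0 for FOSB (-2.05 to 1.48), JUND and FOS. With nutlin-3a, FOSB differed by -0.12 in LIMA1 shRNA cells and 0.14 in those with control shRNA, and JUND by 0.00093 and -0.11. With LIMA1 shRNA, FOS differed by -0.022 with nutlin-3a and 0.046 untreated, and IER5 by 0.069 and -0.17.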

How the results depend on the processing

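For the genes that passed each filter, FOSB among them where no filter was set, differences stayed within their counting intervals (450 of 450 values). A filter or call size leaves a difference as it was, so only the other pseudocounts and scalings could move one. FOSL1 stayed higher by at least 1 with nutlin-3a in both lines under each pseudocount, scaling and filter. In LIMA1 shRNA cells the count of lower genes was 0 instead of 1 with a pseudocount of 30, upper-quartile scaling, median-of-ratios scaling or a call at 2, since FOS lies at the edge; with upper-quartile or median-of-ratios scaling FOSL2 passed 1 and made the higher genes 3. A call at 2 left 1 higher gene in LIMA1 shRNA cells and 0 in those with control shRNA. A call at 1.5-fold gave 3 higher and 1 lower gene with nutlin-3a in control shRNA cells, and 1 higher gene with LIMA1 shRNA in each treatment. Under equal totals and upper-quartile scaling the untreated LIMA1 shRNA differences of FOS and JUND changed sign. With the length of all exons joined, 8 FOS family shares moved beyond counting error, in FOS and FOSL2.

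Counts over all genes moved more. With nutlin-3a in LIMA1 shRNA cells, 929 higher and 775 lower became 4268 and 1836 with no filter, 1991 and 1861 at 1.5-fold and 246 and 302 at a call at 2, and 482 higher at means of at least 150. In control shRNA cells 706 and 719 became 2743 and 1802, 1696 and 1626, and 195 and 314, and 364 higher. With LIMA1 shRNA under nutlin-3a, 161 and 247 became 2448 and 1688, 557 and 679, and 28 and 39, and 59 and 78 at means of at least 150, 82 and 99 with a pseudocount of 30, and 106 higher without shared reads. Untreated, 132 and 261 became 1223 and 1759, 442 and 770, and 27 and 38, and 42 and 68 at means of at least 150 and 57 and 98 with a pseudocount of 30. For the response difference, 162 and 104 became 2931 and 1998, 476 and 374, and 37 and 31, with 29 and 29, 43 and 41, and 82 and 45 without shared reads. Of 50 list counts, 30 moved by over 1.5 times with a call at 1.5-fold, 25 with a call at 2, 15 with no filter, 13 with a pseudocount of 30, 12 at means of at least 150 and at most 5 under any other setting. No paired analysis was possible because each group had 1 library. A fit of treatment and line without their interaction, which would leave 1 residual degree of freedom, was not run.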

Other observations

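A few related genes under the mean of 30 had more fragments with nutlin-3a. ARC, an immediate early gene known from neurons, had 37.5 normalized counts with nutlin-3a against 5.94 untreated in LIMA1 shRNA cells and 26.8 against 4.71 in control shRNA cells. MAF, a basic leucine zipper factor, had 20.4 and 1.99 normalized counts with nutlin-3a in LIMA1 shRNA and control shRNA cells and was listed at 0 in both untreated libraries. BATF and DUSP2 were at 0 in all 4 libraries.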
